A study of Homo sapiens with 22 samples.

Results

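The 10 genes described here encode regulators of the BCL2 family, which decide whether the mitochondrial outer membrane of a cell stays intact or becomes permeable. They were taken by name, with earlier results of these data known, and all 10 were found among the 37908 genes of the table. RNA-seq was carried out in H1299, a line from a human lung carcinoma of the non-small cell type, with an integrated shRNA against BRCA2 that doxycycline (DOX) induces. BRCA2-deficient cells had received 2 µg/mL DOX for 3 days and BRCA2-proficient cells none. In each background the cells received either a control siRNA or siβ-catenin, and were then left without drug or exposed for 24 h to 250 nM LY2090314, an inhibitor of GSK3 (GSK3i) that causes accumulation of β-catenin. This gave 8 groups and 22 libraries: untreated (control siRNA alone), GSK3i, siβ-catenin, and GSK3i with siβ-catenin, in each background. Untreated and siβ-catenin BRCA2-proficient cells had 2 libraries each, numbered 2 and 3, and the other 6 groups had 3. The replicates are described by the study as independent experiments. No cells without the shRNA were given DOX among these libraries, so DOX and BRCA2 depletion cannot be told apart. The study lists a single siRNA sequence against β-catenin, so loss of β-catenin and other effects of that siRNA cannot be told apart either.

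Commitment to mitochondrial apoptosis rests on 3 kinds of family member. The effectors BAX and BAK1 form pores in the outer membrane, through which cytochrome c leaves to activate caspases. The anti-apoptotic proteins, here MCL1 and BCL2L1 (BCL-XL), hold effectors and their activators in check. The BH3-only proteins start the process: BCL2L11 (BIM), BBC3 (PUMA) and BID can engage effectors directly, whereas BMF, PMAIP1 (NOXA) and BAD mainly occupy anti-apoptotic partners. Much of this control acts on the proteins, and GSK3 itself is known to phosphorylate MCL1 and promote its degradation. The measurements here are of polyadenylated RNA only.

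On GRCh37, the build of the count table, BMF (ENSG00000104081) lies on chromosome 15 at 40380091 to 40401093, minus strand. BBC3 (ENSG00000105327) lies on chromosome 19 at 47724079 to 47736023, minus strand. BCL2L11 (ENSG00000153094) lies on chromosome 2 at 111876955 to 111926021, plus strand. PMAIP1 (ENSG00000141682) lies on chromosome 18 at 57567228 to 57571537, plus strand. BID (ENSG00000015475) lies on chromosome 22 at 18216904 to 18257536, minus strand, and BAD (ENSG00000002330) on chromosome 11 at 64037302 to 64052176, minus strand. BAX (ENSG00000087088) lies on chromosome 19 at 49458072 to 49465055, plus strand, and BAK1 (ENSG00000030110) on chromosome 6 at 33540324 to 33548070, minus strand. BCL2L1 (ENSG00000171552) lies on chromosome 20 at 30252255 to 30311792, minus strand, and MCL1 (ENSG00000143384) on chromosome 1 at 150533371 to 150552214, minus strand. Reads were counted over exons of the whole gene, so isoforms of a gene are added together. Antisense genes share 41.3% of the exon bases of BCL2L1 (with ABALON), 23.7% of those of BAD (with GPR137) and 10.8% of those of BCL2L11 (with MIR4435-2HG). For BMF the share is 8.46% (with BMF-AS1). Neither ABALON nor BMF-AS1 is among the genes counted. The libraries were stranded, but the strand setting of the counting was not given in the sources used here, so the levels of these genes are uncertain to that extent. BAK1 has a processed pseudogene, BAK1P1, with a mean of 133 counts per library against 1704 for BAK1, and reads may be split between them.

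The sequences shown are the 250 bases before a start site of the 5 members whose group means differed most between groups, since β-catenin acts on genes through TCF/LEF factors bound to their regulatory DNA and FOXO factors are known regulators of BCL2L11 and BBC3. They are RefSeq sequences on GRCh38.p14, a different build from that of the counts, written 5′ to 3′ on the strand of the gene. The windows are chr15:40108880-40109129 (minus strand) for BMF, chr19:47232668-47232917 (minus strand) for BBC3, chr2:111120664-111120913 (plus strand) for BCL2L11, chr18:59899746-59899995 (plus strand) for PMAIP1 and chr6:33580277-33580526 (minus strand) for BAK1. Where a gene has several annotated starts, the first listed is printed. Capitals mark a match to a TCF/LEF motif, CTTTGAT, or to a FOXO motif, TGTTTAC, on either strand, and the rest is in lower case.
BMF: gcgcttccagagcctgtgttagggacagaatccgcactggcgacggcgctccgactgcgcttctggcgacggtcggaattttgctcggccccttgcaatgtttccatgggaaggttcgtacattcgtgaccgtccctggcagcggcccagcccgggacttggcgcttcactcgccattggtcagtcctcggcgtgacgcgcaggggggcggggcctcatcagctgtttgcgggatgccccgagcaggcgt
BBC3: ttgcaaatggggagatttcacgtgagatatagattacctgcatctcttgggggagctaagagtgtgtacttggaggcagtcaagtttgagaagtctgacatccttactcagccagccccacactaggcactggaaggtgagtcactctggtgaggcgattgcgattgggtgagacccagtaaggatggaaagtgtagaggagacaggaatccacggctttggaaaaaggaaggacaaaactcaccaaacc
BCL2L11: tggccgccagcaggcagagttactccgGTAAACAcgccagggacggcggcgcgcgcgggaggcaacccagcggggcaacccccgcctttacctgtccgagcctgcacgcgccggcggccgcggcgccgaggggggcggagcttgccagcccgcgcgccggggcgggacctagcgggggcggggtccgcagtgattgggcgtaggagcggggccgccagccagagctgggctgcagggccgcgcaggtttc
PMAIP1: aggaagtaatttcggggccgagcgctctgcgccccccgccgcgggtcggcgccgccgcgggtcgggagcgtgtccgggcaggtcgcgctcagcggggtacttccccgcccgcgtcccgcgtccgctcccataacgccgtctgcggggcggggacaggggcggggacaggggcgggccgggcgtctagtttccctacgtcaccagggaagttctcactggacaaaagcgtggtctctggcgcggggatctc
BAK1: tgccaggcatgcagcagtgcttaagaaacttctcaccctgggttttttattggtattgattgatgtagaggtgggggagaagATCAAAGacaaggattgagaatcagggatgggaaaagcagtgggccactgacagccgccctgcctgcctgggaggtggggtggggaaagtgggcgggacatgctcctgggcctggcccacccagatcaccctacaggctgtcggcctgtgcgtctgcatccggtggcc

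RefSeq windows were at hand for 9 of the 10 members, 16 windows in all, and MCL1 had none. The FOXO letters were found in 1 of the 16 windows, that of BCL2L11, on the minus strand, starting at position -223 from the start site. The TCF/LEF letters were found in 1 window, that of BAK1, on the minus strand at position -168. Among all 34788 distinct windows of this length 2.98% held the FOXO letters and 2.27% the TCF/LEF letters. The windows of PMAIP1 and BCL2L11 were rich in G and C (72.8% and 76.8%), whereas those printed for BBC3 and BAK1 held 49.2% and 58.0%. A match is a description of the letters in the window and not evidence of a bound factor.

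Total counts ranged from 18938266 to 29280122 per library. The siRNA and shRNA targets followed their labels: CTNNB1, which encodes β-catenin, ranged over 5206 to 8669 normalised counts with control siRNA and 977 to 2217 with siβ-catenin, and BRCA2 over 514 to 1111 without DOX and 71.4 to 225 with it. As markers of the line, the epithelial keratins KRT8 and KRT18 and the mesenchymal genes VIM, CDH2 and FN1 were expressed in every library. KRT8 was lower with GSK3i, at means of 2262 against 4970.0 normalised counts in BRCA2-proficient (-1.15 ± 0.17, adjusted p = 1.65e-10) and 2720.0 against 6717 in BRCA2-deficient cells (-1.31 ± 0.24, 1.3e-06), and KRT18 moved by -0.46 ± 0.15 (0.00994, under the size required for a call) and -0.76 ± 0.25 (0.0139). With control siRNA the mesenchymal genes were not called with GSK3i in either background. With siβ-catenin in BRCA2-deficient cells, 1 of the 3 was called lower with GSK3i. The part of the keratin change in the results for the members was not tested. KRT19, EPCAM and CDH1 were near 0, the highest being 22.2 normalised counts, of EPCAM. Markers of leukocytes (PTPRC, CD14), endothelium (CDH5, VWF) and erythroid cells (HBA1) did not exceed 19.1 normalised counts.

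The labels of 2 BRCA2-proficient libraries were not borne out for GSK3i, and 1 further library scored between the levels. A response score was computed for each library as the mean log2 level of the 1027 genes that GSK3i raised in both siRNA arms of BRCA2-deficient cells, minus that of the 1508 genes that it lowered in both, with the 10 members left out. BRCA2-deficient libraries set the score, and their separation is therefore no test. In BRCA2-proficient cells the untreated libraries scored 1.39 and 1.41, and the GSK3i libraries 3.51 to 3.54. Of the libraries labelled GSK3i with siβ-catenin, replicate 2 scored 1.34, with the untreated ones, against 3.15 and 3.18 for replicates 1 and 3. The library labelled siβ-catenin replicate 2 scored 3.13, although its label gives no GSK3i, and that labelled siβ-catenin replicate 3 scored 1.99, between the other two levels. AXIN2, a feedback target of β-catenin, had 73.1 normalised counts in that replicate 2 and 145 and 117 in the other two, but 67.2 and 65.0 in the libraries labelled siβ-catenin. No library was moved to another group. The comparisons that use these 3 libraries are named as such, and for the main calls the value without a doubted library is given as well. Both libraries of the group labelled siβ-catenin were in doubt, so no value of that group is free of them. Results in BRCA2-deficient cells, or in BRCA2-proficient cells with control siRNA, do not use these libraries.

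**Figure D1:**
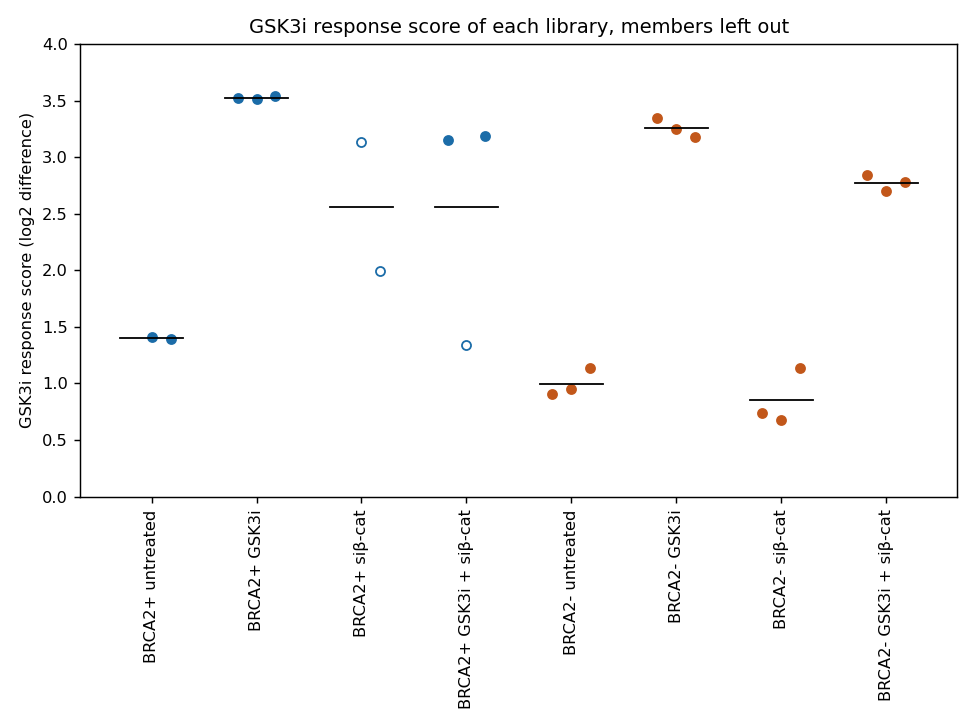
GSK3i response score (log2 difference, y axis) of each of the 22 libraries by group (x axis; BRCA2+ is BRCA2-proficient, BRCA2- is BRCA2-deficient, siβ-cat is siβ-catenin), with blue points for BRCA2-proficient and orange for BRCA2-deficient libraries, black lines for group means, and hollow points for the 3 libraries whose score goes against or lies between their labels. In BRCA2-proficient cells the hollow point among the libraries labelled GSK3i + siβ-cat sits at 1.34, and the higher hollow point of those labelled siβ-cat at 3.13.

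Normalised read counts per kilobase of exon set the levels of genes side by side. The length was that of all exons annotated for a gene in GENCODE 44. Exons that are not expressed therefore lower its value, and the order between genes is approximate. In untreated BRCA2-proficient cells the anti-apoptotic members were the most abundant, MCL1 with 1518 ± 69.8 (SD, n = 2) and BCL2L1 with 1188 ± 40.2 normalised counts per kb. PMAIP1 followed with 584 ± 64.7, then BAK1 (411 ± 32.1) and BAX (404 ± 2.58), whose ranges overlapped, then BAD (338 ± 44.4) and BID (214 ± 14.6). BMF (109 ± 32.6) and BBC3 (99.2 ± 18.2) overlapped, and BCL2L11, with 40.5 ± 5.41, was the lowest of the 10. With GSK3i the lower end of this order turned over: in BRCA2-proficient cells BCL2L11 had 55.2 ± 3.81 (SD, n = 3), BBC3 23.9 ± 4.27 and BMF 8.58 ± 4.57 normalised counts per kb, and no 2 of these ranges overlapped. The same order was seen in BRCA2-deficient cells with GSK3i, where BCL2L11 had 84.1, BBC3 19.8 and BMF 11.4 on this scale, again with no overlap. At the upper end BCL2L1 had 1573 and MCL1 1126 normalised counts per kb in BRCA2-deficient cells with GSK3i, and the ranges of MCL1 and BAK1 (974) overlapped. Across the 8 groups the means of BMF spanned 3.78 on the log2 scale, those of BBC3 2.30, BCL2L11 1.58, BAK1 1.41 and PMAIP1 1.27, whereas BID (0.86), BAD (0.75), MCL1 (0.43), BAX (0.43) and BCL2L1 (0.40) spanned less than 1.

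**Figure D2:**
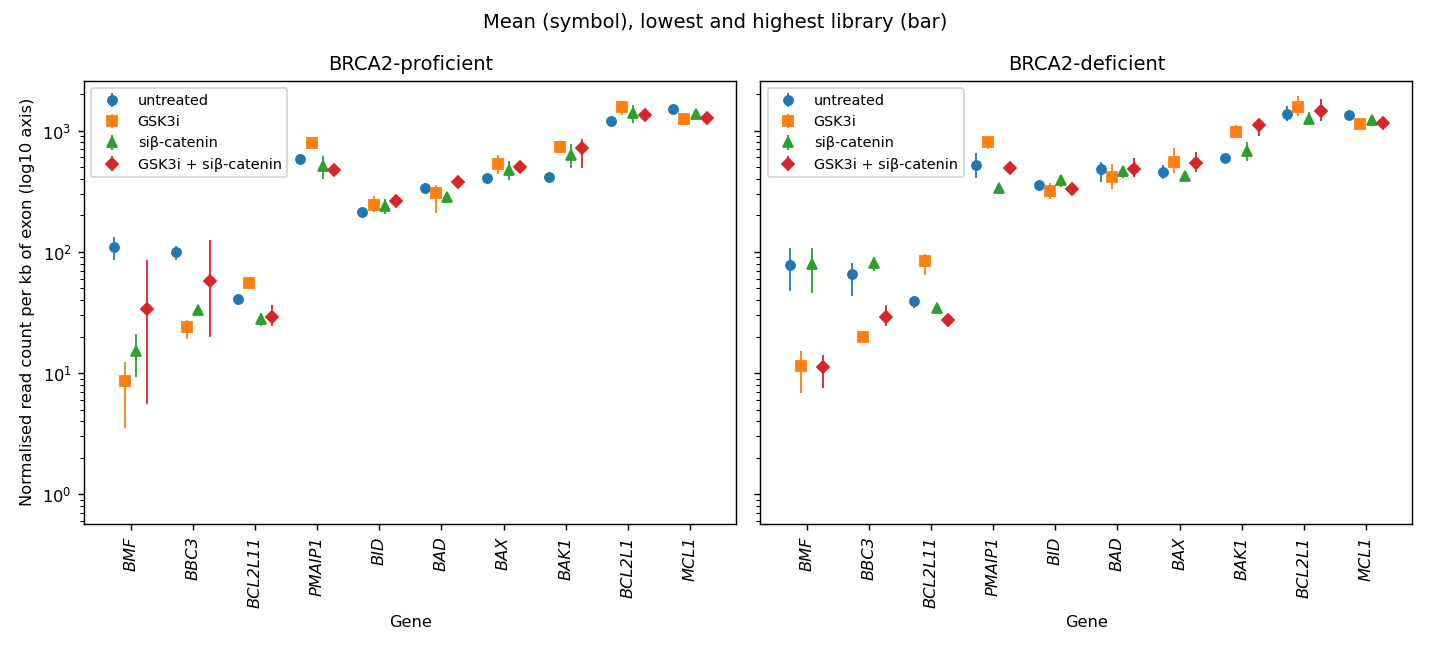
Normalised read count per kb of exon (y axis, log10) for the 10 genes (x axis) in BRCA2-proficient (left) and BRCA2-deficient (right) cells; symbols are group means and bars run from the lowest to the highest library. BMF and BBC3 are lower with GSK3i in both panels (in BRCA2-deficient cells BMF has a mean of 11.4 against 77.1 in untreated cells), while MCL1 and BCL2L1 stay above 1000 in every group; the long bars of BMF and BBC3 in BRCA2-proficient GSK3i + siβ-catenin come from the library labelled replicate 2.

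Each comparison was tested across all genes with DESeq2, and calls required both an adjusted p (Benjamini-Hochberg) under 0.05 and a log2 fold change of more than 0.5, up or down. All 10 members passed the filter on low counts in every comparison. With GSK3i against untreated, 3 members were called in BRCA2-proficient cells (1 higher, 2 lower) and 5 in BRCA2-deficient cells (3 higher, 2 lower), where 26.1% and 25.4% of all genes tested were called. With GSK3i in cells with siβ-catenin, 4 members were called in BRCA2-deficient cells (2 higher, 2 lower), against 20.1% of all genes. In BRCA2-proficient cells, a comparison that uses the 3 doubted libraries, 0 members and 0.0529% of genes were called by DESeq2 and 0 members by edgeR, with 1 member at an unadjusted p under 0.05. A fit without both libraries numbered 2 leaves 1 library in the siβ-catenin group there, so its calls are not set against this share. The counts were not tested against these shares, and with 10 genes they are not read as particular to the members. In bulk RNA, fewer cells that express a gene and less RNA per cell cannot be told apart.

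With siβ-catenin under GSK3i, 2 members were called in each background, both lower, where 5.1% (BRCA2-proficient) and 5.52% (BRCA2-deficient) of genes were called. The BRCA2-proficient comparison uses replicate 2 of the GSK3i with siβ-catenin label, a doubted library. Without GSK3i, siβ-catenin gave 2 members in BRCA2-proficient cells, both lower and both resting on the doubted libraries, against 2.97% of genes (524 genes, but 39 and 21 without untreated replicate 2 or 3 and 2039 without the library labelled siβ-catenin replicate 3). In BRCA2-deficient cells it gave 0 members by DESeq2 and by edgeR, with 1 at an unadjusted p under 0.05, against 2.03% of genes. BRCA2 depletion gave 1 member without drug (6.91% of genes) and 1 under GSK3i (6.81% of genes), both higher, and edgeR called neither. The share without drug rests on single libraries too: its 1185 genes became 181 and 227 without BRCA2-proficient untreated replicate 2 or 3, and 460 and 2161 without BRCA2-deficient untreated replicate 2 or 3. Comparisons with a group in common share its libraries, so they are not independent of each other.

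**Figure D3:**
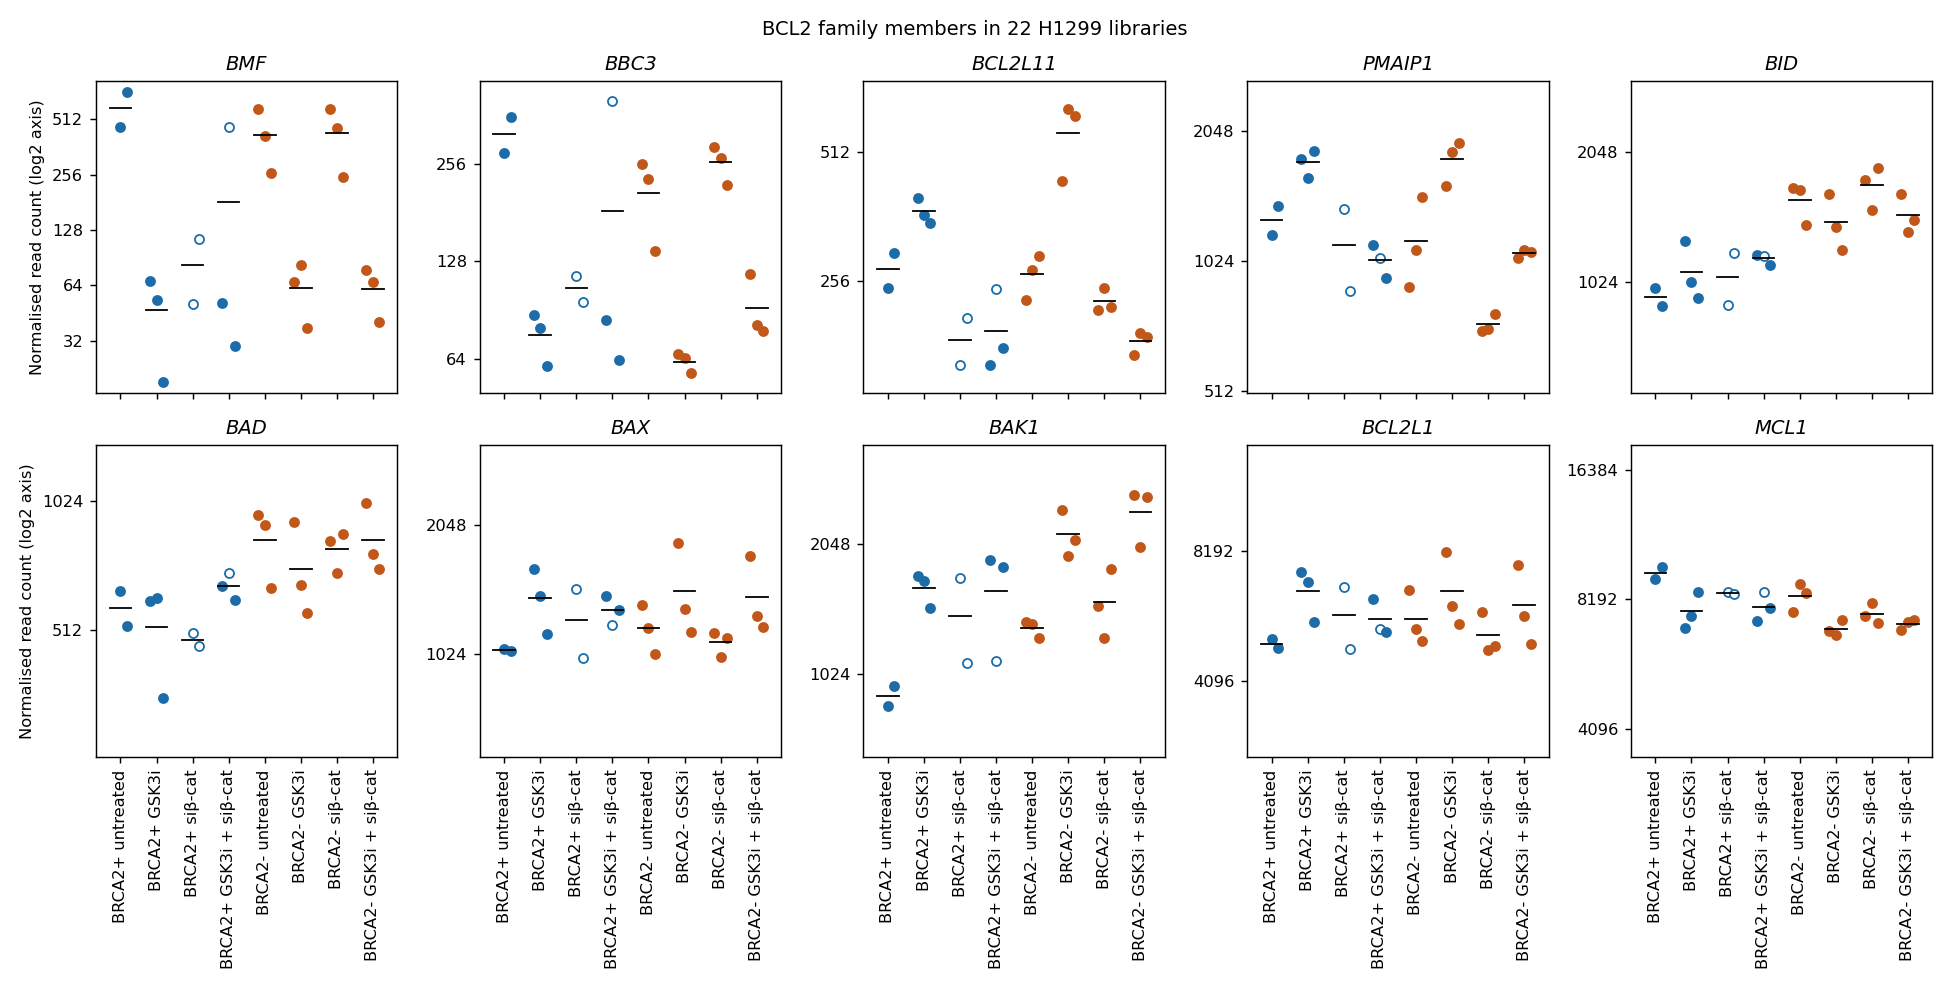
Normalised read counts (y axis, log2) of the 10 genes, one panel each, in the 22 libraries by group (x axis; BRCA2+ is BRCA2-proficient, BRCA2- is BRCA2-deficient, siβ-cat is siβ-catenin). Points are libraries, black lines group means, and hollow points the 3 doubted libraries; BMF and BBC3 are low in the GSK3i groups, with the hollow point of GSK3i + siβ-cat at 466 for BMF and 399 for BBC3, and BCL2L11 is highest in BRCA2-deficient GSK3i libraries, at 438 to 643.

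BMF, whose protein binds dynein light chain and neutralises anti-apoptotic partners when released, showed the widest change. In untreated BRCA2-proficient cells it had 467 and 718 normalised counts, and with GSK3i 67.6, 53.5 and 19.2. The groups did not overlap, and BMF fell 12.8-fold with GSK3i (log2 fold change -3.68 ± 0.66 (SE), adjusted p = 3.79e-07). In BRCA2-deficient cells it had 583, 416 and 261 normalised counts without drug and 66.4, 82.2 and 37.6 with GSK3i, a 6.78-fold decrease (-2.76 ± 0.36, adjusted p = 8.68e-13). Replicate 3 was the lowest library of its group in each of these BRCA2-deficient groups. The change with GSK3i differed between backgrounds by 0.90 on the log2 scale (95% interval -0.29 to 2.10), and this was not called (adjusted p = 1.0).

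In BRCA2-deficient cells with siβ-catenin BMF had 580, 461 and 250 normalised counts, and with GSK3i as well 77.0, 66.5 and 40.7. These libraries did not overlap either, with a log2 fold change of -2.81 ± 0.31 for GSK3i (adjusted p = 4.24e-17). The siRNA itself moved BMF little in BRCA2-deficient cells, by 0.04 ± 0.31 without GSK3i (adjusted p = 0.981; 95% interval -0.58 to 0.66) and by -0.03 ± 0.39 with it (adjusted p = 0.991; -0.79 to 0.74). The decrease with GSK3i was thus measured at like size with either siRNA, and the difference between the siRNAs was -0.06 (95% interval -1.12 to 0.99; adjusted p = 1.0). The β-catenin target AXIN2 was still higher with GSK3i in these siβ-catenin cells, at 227, 192.5 and 117.5 normalised counts against 95.0, 96.9 and 80.8. CTNNB1 remained there at 977 to 1821 with GSK3i. The part of the remaining β-catenin in the change of BMF was not tested. In BRCA2-proficient cells the libraries labelled GSK3i with siβ-catenin had 51.4, 466 and 30.0 normalised counts of BMF for replicates 1, 2 and 3. Those labelled siβ-catenin had 50.7 and 115 for replicates 2 and 3. BMF was called lower with siβ-catenin alone (-2.84 ± 0.39, adjusted p = 6.16e-10), and was at -2.37 without the library labelled replicate 2 and -3.56 without that labelled replicate 3. Under GSK3i the change of BMF with siβ-catenin was 2.00 ± 1.21 (adjusted p = 0.376), and -0.18 (0.926) when replicate 2 of the GSK3i with siβ-catenin label was left out. For siβ-catenin alone, neither edgeR (adjusted p = 0.149) nor one model over all groups (0.0781) called it.

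BBC3 (PUMA), which can bind every anti-apoptotic member of the family, moved in the same direction as BMF with GSK3i and by less. Untreated BRCA2-proficient libraries had 275 and 357 normalised counts, and GSK3i libraries 87.4, 79.7 and 60.9. BBC3 fell 4.21-fold (-2.07 ± 0.25, adjusted p = 1.36e-14). In BRCA2-deficient cells the 256, 230 and 138 normalised counts of untreated libraries compared with 66.4, 64.6 and 58.1 with GSK3i, a 3.30-fold decrease (-1.72 ± 0.29, adjusted p = 1.16e-07). With siβ-catenin BBC3 had 288, 267 and 220 without and 117, 81.6 and 78.3 with GSK3i (-1.48 ± 0.23, adjusted p = 1.26e-08). In none of these 3 comparisons did the libraries of the groups overlap.

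Under GSK3i in BRCA2-deficient cells, the BBC3 libraries with siβ-catenin all lay above those with control siRNA, but the change of 0.54 ± 0.28 was not called (adjusted p = 0.28). In BRCA2-proficient cells the libraries labelled GSK3i with siβ-catenin had 84.6, 399 and 63.7 normalised counts, that labelled replicate 2 lying above both untreated ones. The change of BBC3 with siβ-catenin under GSK3i was 1.30 ± 0.83 with this library (adjusted p = 0.413) and -0.02 without it (0.993). It was called in a single model of all 8 groups (1.29, 0.0421) and without the library labelled replicate 3 (1.71, 0.0191), fits that keep the doubted library. Both libraries labelled siβ-catenin were low, with 116 and 95.9 normalised counts, and BBC3 was called lower in them than in untreated cells (-1.59 ± 0.30, adjusted p = 4.93e-05). It was -1.72 without the one labelled replicate 2 (0.000507) and -1.46 without that labelled replicate 3, and was called both times. The call was lost without either untreated library, in edgeR (0.16) and with one model over all groups (0.082). The effect of GSK3i on BBC3 differed between the siRNAs by 2.87 ± 1.09 in BRCA2-proficient cells (adjusted p = 0.0722), in a comparison where 0 members were called against 7.63% of genes, 1 had an unadjusted p under 0.05, BMF was given no p by DESeq2 and edgeR called 0. The difference for BBC3 was 2.67 with the replicate number as a block (adjusted p = 0.0153) and 1.70 without both libraries numbered 2 (0.00933).

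BCL2L11 (BIM), which like BMF binds dynein light chain, changed in BRCA2-deficient cells in opposite directions with GSK3i and with siβ-catenin given under GSK3i. It had 232, 273 and 294 normalised counts in untreated libraries and 438, 643 and 621 with GSK3i. Every GSK3i library was above every untreated one, and BCL2L11 rose 2.13-fold (1.09 ± 0.22, adjusted p = 8.67e-06). With GSK3i and siβ-catenin it had 173, 195 and 191 normalised counts, below all libraries of the other 3 BRCA2-deficient groups. Against GSK3i with control siRNA this was a 3.06-fold decrease (-1.62 ± 0.21, adjusted p = 1.94e-11). With siβ-catenin alone BCL2L11 had 220, 248 and 224, which overlapped the untreated libraries, and the change of -0.21 ± 0.19 was not called (adjusted p = 0.722).

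In the presence of siβ-catenin GSK3i did not raise BCL2L11: the change was -0.30 ± 0.18 (adjusted p = 0.228; 95% interval -0.66 to 0.05). The difference between the effects of GSK3i with siβ-catenin and with control siRNA was tested directly and was called, at -1.41 ± 0.25 (adjusted p = 1.71e-05). BCL2L11 was the only member called in that test, in which 0.486% of all genes were called. The difference remained between -1.31 and -1.55 in the fits that left out a library, all of them called, while edgeR gave -1.40 with an adjusted p of 0.0525.

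In BRCA2-proficient cells BCL2L11 had 247 and 299 normalised counts without drug and 401, 365 and 351 with GSK3i. These libraries did not overlap, but the change of 0.43 ± 0.19 was not called (adjusted p = 0.0629). The libraries labelled GSK3i with siβ-catenin had 164, 246 and 179, each below those with GSK3i and control siRNA (-0.89 ± 0.21, adjusted p = 0.00168). Without the library labelled replicate 2 this decrease was -1.10 (2.16e-07), and in edgeR -0.90 (0.0695). The libraries labelled siβ-catenin had 164 and 211. The rise with GSK3i was larger by 0.65 in BRCA2-deficient than in BRCA2-proficient cells (95% interval 0.10 to 1.19), and the fall with siβ-catenin under GSK3i by 0.70 (interval of the difference -1.27 to -0.14), but neither difference was called (adjusted p = 1.0 for both). In these 2 tests of a difference between backgrounds DESeq2 and edgeR called 0 members, BCL2L11 was the 1 member with an unadjusted p under 0.05 in each, and 0.0345% and 0.0057% of all genes were called. When replicate 2 of the GSK3i with siβ-catenin label was left out, the second difference was -0.51 (adjusted p = 1.0). Under GSK3i BCL2L11 was called higher in BRCA2-deficient than in BRCA2-proficient cells (0.61 ± 0.20, adjusted p = 0.0331), without overlap, but not in edgeR (0.0975). The call was also lost without any of the 3 BRCA2-proficient libraries or BRCA2-deficient replicate 2 or 3 (0.0829 to 0.237).

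PMAIP1 (NOXA), which chiefly binds MCL1, was the other member that siβ-catenin lowered under GSK3i. In BRCA2-deficient cells with GSK3i it had 1528, 1830.0 and 1929 normalised counts with control siRNA and 1040.0, 1087 and 1072 with siβ-catenin, a 1.66-fold decrease (-0.73 ± 0.15, adjusted p = 0.000127). In BRCA2-proficient cells it had 1768, 1599 and 1842 with GSK3i and 1115, 1042 and 933 in the libraries labelled GSK3i with siβ-catenin, a decrease of the same size (-0.73 ± 0.14, adjusted p = 5.24e-05). Without the library labelled replicate 2 the latter was -0.74 (1.41e-05). In neither background did these groups overlap.

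Unlike BCL2L11, PMAIP1 was also low with siβ-catenin alone in BRCA2-deficient cells, with 703, 713 and 772 normalised counts against 890.2, 1084 and 1439 in untreated ones. The groups did not overlap, and the change of -0.64 ± 0.20 had an adjusted p of 0.0577. With the replicate number as a block it was -0.61 (0.0145) and was called, as it was in a single model of all 8 groups (-0.64, 0.017) and without untreated replicate 1 (-0.79, 0.00126). GSK3i was accompanied by higher PMAIP1 with either siRNA in BRCA2-deficient cells, by 0.63 ± 0.22 with control siRNA (adjusted p = 0.0157) and by 0.55 ± 0.14 with siβ-catenin (0.000847). The former call was lost without untreated replicate 1 or 2 or GSK3i replicate 2 or 3 (0.0885 to 0.109). The 2 effects of GSK3i differed by -0.09 (95% interval -0.56 to 0.38; adjusted p = 1.0). In BRCA2-proficient cells PMAIP1 had 1177 and 1377 normalised counts in untreated libraries and was higher in each with GSK3i, with a change of 0.43 ± 0.14 (adjusted p = 0.0111) that was under the size required. It was called without untreated replicate 3 (0.55, 0.0386). The libraries labelled siβ-catenin had 1355 and 874.

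BID, which caspase-8 cleaves to link death receptors to mitochondria, was called for BRCA2 status and in no comparison of drug or siRNA. It had 991 and 900.3 normalised counts in untreated BRCA2-proficient cells and 1690.0, 1671 and 1390.0 in untreated BRCA2-deficient cells. The groups did not overlap, and BID was called higher, by 1.65-fold (0.72 ± 0.17, adjusted p = 0.00133). It was the only member called for BRCA2 depletion without drug. The call was lost in edgeR (adjusted p = 0.054), and without either untreated BRCA2-proficient library or untreated BRCA2-deficient replicate 2 (0.0961 to 0.373). Under GSK3i the groups overlapped, with 1275, 1022 and 942 normalised counts in BRCA2-proficient and 1635, 1376 and 1212 in BRCA2-deficient cells (0.38 ± 0.17, adjusted p = 0.184), but BID was higher in the BRCA2-deficient library of each same-numbered pair, and with the replicate number as a block its adjusted p was 0.00809, at a size (0.38) too small for a call. Over all groups BID lay between 900.3 and 1275 in the 10 BRCA2-proficient libraries and between 1212 and 1886 in the 12 BRCA2-deficient ones. With GSK3i its change was 0.18 ± 0.17 in BRCA2-proficient (adjusted p = 0.442) and -0.17 ± 0.18 in BRCA2-deficient cells (0.524), and with siβ-catenin under GSK3i 0.13 ± 0.16 (0.718; 0.12 without the doubted library) and 0.06 ± 0.17 (0.935).

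BAD, held inactive by 14-3-3 proteins when phosphorylated, was called in no comparison. Untreated libraries had 632 and 524 normalised counts in BRCA2-proficient and 946, 900.1 and 641 in BRCA2-deficient cells. These did not overlap, and the change of 0.49 ± 0.22 had an adjusted p of 0.166, or 0.64 with 0.0145 when untreated BRCA2-deficient replicate 3 was left out. The change with GSK3i was -0.16 ± 0.22 in BRCA2-proficient (adjusted p = 0.616) and -0.23 ± 0.24 in BRCA2-deficient cells (0.533). The GSK3i libraries spread from 356 to 608 and from 562 to 913 normalised counts, and the 95% intervals of the changes were -0.60 to 0.28 and -0.71 to 0.25.

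Of the effectors, BAK1 rose with GSK3i and BAX was not called. BAK1 had 859 and 959 normalised counts in untreated BRCA2-proficient cells and 1726, 1676 and 1451 with GSK3i, a 1.76-fold rise (0.82 ± 0.15, adjusted p = 4.74e-07). In BRCA2-deficient cells it went from 1346, 1333 and 1237 to 2454, 1918 and 2094 (0.72 ± 0.16, adjusted p = 7.43e-05). With siβ-catenin it had 1471, 1240.0 and 1787 without and 2658, 2011 and 2635 with GSK3i (0.71 ± 0.19, adjusted p = 0.00157). In all 3 comparisons the groups were separate, and the effects of GSK3i with either siRNA differed by -0.03 (95% interval -0.51 to 0.45; adjusted p = 1.0). siβ-catenin under GSK3i changed BAK1 by 0.17 ± 0.18 in BRCA2-deficient cells (adjusted p = 0.716).

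In BRCA2-proficient cells the libraries labelled siβ-catenin had 1707 (replicate 2) and 1084 (replicate 3) normalised counts, and those labelled GSK3i with siβ-catenin 1875, 1093 (replicate 2) and 1811. The effect of GSK3i in these 5 libraries was 0.20 ± 0.31 (adjusted p = 1.0), and without both libraries numbered 2 it was 0.76 (0.000175), which leaves 1 library in the siβ-catenin group and assumes that it varies like the others. BAK1 was higher with BRCA2 depletion by 0.50 ± 0.16 in untreated cells (adjusted p = 0.0305), just under the size required, and by 0.41 ± 0.15 under GSK3i (0.0569).

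BAX had 1051 and 1041 normalised counts in untreated and 1618, 1395 and 1138 in GSK3i BRCA2-proficient libraries. Each GSK3i library was above both untreated ones, with a change of 0.39 ± 0.17 (adjusted p = 0.0569), and without GSK3i replicate 3 it was called (0.52, 0.00153). In BRCA2-deficient cells the change was 0.28 ± 0.22 with control siRNA (adjusted p = 0.367), where the groups overlapped although BAX was higher with GSK3i in each same-numbered pair (replicate block 0.26, 0.0433), and 0.36 ± 0.18 with siβ-catenin (0.141), where they did not. Replicate 1 had the highest BAX in each of the 4 BRCA2-deficient groups, for example 1851 against 1302 and 1152 with GSK3i.

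**Figure D4:**
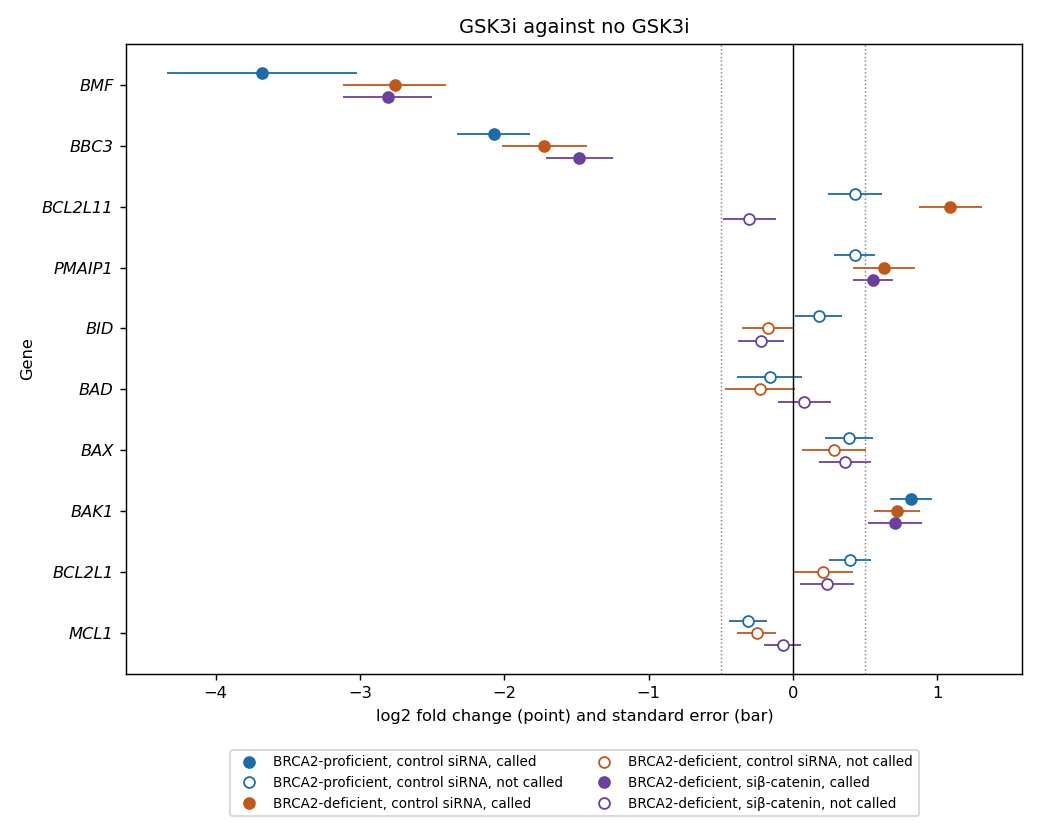
Log2 fold change with GSK3i (x axis; bars are standard errors) of each gene (y axis) in BRCA2-proficient (blue) and BRCA2-deficient (orange) cells with control siRNA and in BRCA2-deficient cells with siβ-catenin (purple). Filled points were called, hollow ones were not, and dotted lines mark 0.5 in either direction; BMF and BBC3 lie to the left in all 3 comparisons, BAK1 to the right, and BCL2L11 is at 1.09 with control siRNA but -0.30 with siβ-catenin in BRCA2-deficient cells.

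The anti-apoptotic members were called in no comparison. MCL1, whose protein is short-lived, had 9139 and 9753 normalised counts in untreated and 7019, 7491 and 8527 in GSK3i BRCA2-proficient libraries, a change of -0.31 ± 0.13 (adjusted p = 0.0495) that was under the size required. In BRCA2-deficient cells it had 7633, 8883 and 8462 without and 6917, 6768 and 7325 with GSK3i, also without overlap (-0.25 ± 0.14, adjusted p = 0.158). With siβ-catenin in BRCA2-deficient cells GSK3i changed MCL1 by -0.07 ± 0.13 (adjusted p = 0.73). The 95% intervals of its changes with GSK3i and control siRNA, -0.57 to -0.06 and -0.52 to 0.02, reached just past the size required for a call. For siβ-catenin under GSK3i they were -0.22 to 0.34 with intact BRCA2 (a change of -0.004 without the doubted library) and -0.20 to 0.26 after its depletion.

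BCL2L1 had 5106 and 4867 normalised counts in untreated and 7336, 6924 and 5613 in GSK3i BRCA2-proficient libraries, a change of 0.40 ± 0.15 (adjusted p = 0.0228), again under the size required. Without GSK3i replicate 3 it was 0.51 (5.76e-05) and was called. In BRCA2-deficient cells the groups overlapped, with 6648, 5387 and 5061 normalised counts without and 8148, 6116 and 5538 with GSK3i (0.21 ± 0.20, adjusted p = 0.482), though each GSK3i library was above the untreated one of its number (replicate block 0.20, 0.039). As with BAX, replicate 1 was the highest BRCA2-deficient library in each group. siβ-catenin under GSK3i changed BCL2L1 by -0.19 ± 0.16 in BRCA2-proficient (adjusted p = 0.539; -0.17 without the doubted library) and -0.11 ± 0.22 in BRCA2-deficient cells (0.887).

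The remaining changes of members with BRCA2 depletion were not called. Without drug BBC3 had a change of -0.64 ± 0.29 (adjusted p = 0.178), with both BRCA2-proficient libraries above the BRCA2-deficient ones, and BMF one of -0.53 ± 0.33 (0.359), with overlap. The changes of PMAIP1, BCL2L11, MCL1, BAX and BCL2L1 lay between -0.21 and 0.17, with adjusted p of 0.492 to 0.92. Under GSK3i BMF changed by 0.41 ± 0.47 (0.726) and BBC3 by -0.27 ± 0.27 (0.671), and PMAIP1, MCL1, BAX and BCL2L1 by -0.14 to 0.04 (0.661 to 0.982).

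**Figure D5:**
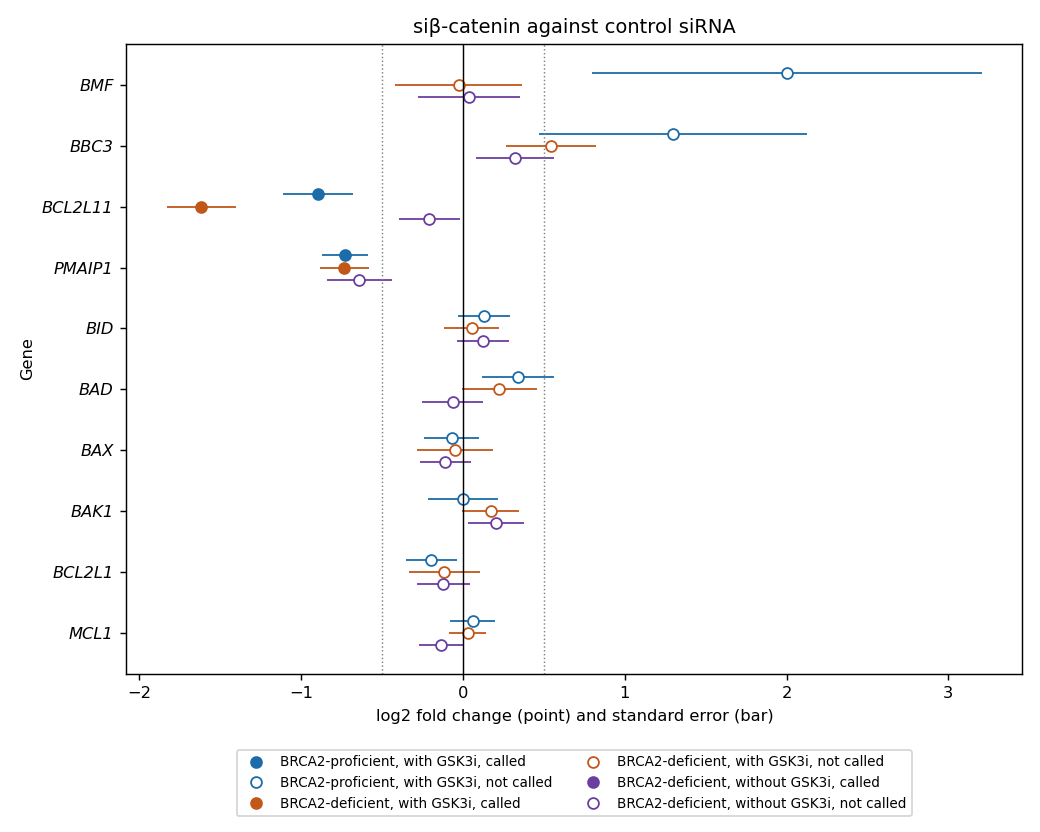
Log2 fold change with siβ-catenin (x axis; bars are standard errors) of each gene (y axis) under GSK3i in BRCA2-proficient (blue) and BRCA2-deficient (orange) cells, and without GSK3i in BRCA2-deficient cells (purple). Filled points were called, hollow ones were not; BCL2L11 and PMAIP1 are the called genes, at -1.62 and -0.73 under GSK3i in BRCA2-deficient cells, and the wide bars of BMF and BBC3 in blue include replicate 2 of the GSK3i with siβ-catenin label.

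Other genes of the same pathway, from lists chosen with earlier results of these data known, give the surroundings of these changes. Their counts are to be read against the shares of all genes called, 26.1% and 25.4% with GSK3i in BRCA2-proficient and BRCA2-deficient cells. Of 13 further BCL2 family genes, 9 passed the filter on low counts, and BCL2A1, BCL2L10, BCL2L14 and BCL2L15 were near 0. With GSK3i, 1 was called higher and 2 lower in BRCA2-proficient cells, and 3 higher and 2 lower in BRCA2-deficient cells, with medians of 0.13 and 0.09 against -0.002 and 0.025 over all genes. BCL2, the founding anti-apoptotic member, rose from a mean of 201 to 347 normalised counts in BRCA2-proficient (0.77 ± 0.19, adjusted p = 0.00039) and from 143 to 340.4 in BRCA2-deficient cells (1.25 ± 0.19, 1.96e-09). BNIP3L, a mitophagy receptor, fell by 2.04 and 2.09 on the log2 scale (adjusted p = 1.55e-35 and 2.5e-34). BIK, another BH3-only gene, was the other one called lower in both backgrounds, and BCL2L12 and HRK were the others called higher in BRCA2-deficient cells; BIK and HRK were at low counts and were named after their values were seen. With siβ-catenin under GSK3i, HRK was the only 1 of the 9 called in BRCA2-deficient cells (0.83 ± 0.23, adjusted p = 0.00834). In BRCA2-proficient cells, where the doubted library is used, 0 were called.

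Downstream of the mitochondria, CYCS, which encodes cytochrome c, rose with GSK3i by 1.12 ± 0.12 in BRCA2-proficient (adjusted p = 5.35e-18) and 1.04 ± 0.20 in BRCA2-deficient cells (3.94e-06). Of 14 apoptosome and caspase genes tested, 3 were called higher and 1 lower in the former and 4 higher and 2 lower in the latter. The channel genes VDAC1 (0.73 ± 0.12, adjusted p = 1.25e-08, and 0.64 ± 0.15, 0.000238) and VDAC2 (0.83 ± 0.14, 1.45e-08, and 0.56 ± 0.20, 0.0244) were among the higher ones in both, and the caspase gene CASP2 in BRCA2-deficient cells (0.65 ± 0.20, 0.00629). APAF1, the scaffold that cytochrome c activates, was lower with BRCA2 depletion in untreated cells, at 344 against 936 normalised counts (-1.46 ± 0.35, adjusted p = 0.00135), and under GSK3i (-1.01 ± 0.35, 0.0458). BCL2L2, an anti-apoptotic family gene, was also lower in both (-0.71 ± 0.21, 0.0112, and -0.66 ± 0.18, 0.00667), and YWHAH, a 14-3-3 gene, in untreated cells (-0.62 ± 0.15, 0.00146). With siβ-catenin under GSK3i 0 of these 14 genes were called in BRCA2-proficient cells, where the doubted library is used. In BRCA2-deficient cells 1, CASP2, was called lower (-0.56 ± 0.18, adjusted p = 0.0257).

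Of 6 inhibitor of apoptosis genes tested, 1 was called with GSK3i in each background, BIRC3 lower in BRCA2-proficient (-0.63 ± 0.21, adjusted p = 0.0118) and BIRC5, which encodes survivin, higher in BRCA2-deficient cells (0.71 ± 0.22, 0.00782). Of 10 death receptor pathway genes, 1 was called higher and 3 lower in BRCA2-proficient, and 3 higher and 3 lower in BRCA2-deficient cells, with list medians of -0.25 and -0.34. TRADD, an adaptor of the TNF receptor, fell by 0.90 and 0.93 on the log2 scale (adjusted p = 0.000727 and 0.000424), and CFLAR, which encodes the caspase-8 inhibitor FLIP, by 0.79 and 0.73 (3.79e-08 and 0.000126). TNFRSF10A, a TRAIL receptor, was higher in both (0.60 ± 0.15, 0.000493, and 0.81 ± 0.23, 0.00271), and the decoy receptor TNFRSF10C lower in BRCA2-proficient cells (-0.66 ± 0.25, 0.0304). The second value of VDAC2 and of CFLAR and the first of TNFRSF10A lie outside the naming rule and were added after they were seen. The death receptor FAS showed in BRCA2-deficient cells the same 2 calls as BCL2L11, higher with GSK3i (0.84 ± 0.23, adjusted p = 0.0022) and lower with siβ-catenin under GSK3i (-1.22 ± 0.19, 6.25e-08). The latter call was also made in BRCA2-proficient cells (-0.51 ± 0.17, adjusted p = 0.0484, and -0.63, 0.00194, without the doubted library). In the test of whether siβ-catenin changed the effect of GSK3i in BRCA2-deficient cells, FAS was the 1 gene of these pathway lists called beside BCL2L11 (-1.20 ± 0.29, adjusted p = 0.00733), and the check gene AXIN2 was called too (-3.65 ± 0.34, 2.51e-22). None of the 9 genes for dynein light chains and 14-3-3 proteins, which hold BCL2L11, BMF or BAD, was called with GSK3i in cells with control siRNA.

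Of the genes that act on the turnover of the MCL1 and BIM proteins, 6 were tested. DUSP6, a phosphatase that acts on ERK, was lower with GSK3i in BRCA2-proficient (-1.10 ± 0.16, adjusted p = 5.94e-11) and BRCA2-deficient cells (-1.07 ± 0.31, 0.00402). In BRCA2-deficient cells DUSP6 was also lower with siβ-catenin, under GSK3i (-0.90 ± 0.30, adjusted p = 0.0471) and without it (-0.96 ± 0.28, 0.0322). In BRCA2-proficient cells it was not called with siβ-catenin under GSK3i, but was called lower without the doubted library (-0.78, 0.000175). With siβ-catenin alone DUSP6 was called lower there too (-1.20 ± 0.21, 2.49e-06), in libraries that are in doubt. It was lower too with BRCA2 depletion under GSK3i (-0.78 ± 0.22, 0.00875). With GSK3i the ubiquitin ligase subunit FBXW7 was the 1 called higher, in BRCA2-deficient cells (0.52 ± 0.21, adjusted p = 0.0469). Of 4 FOXO transcription factors, 3 were called lower with GSK3i in each background. FOXO4 fell by 2.44 and 2.46 on the log2 scale in BRCA2-proficient and BRCA2-deficient cells (adjusted p = 4.12e-36 and 3.04e-30) and FOXO1 by 1.41 and 1.05 (4.59e-09 and 2.9e-05). FOXO6, with low counts, was the other gene called lower, and is named after its values were seen. FOXO3 moved the other way in BRCA2-deficient cells, with means of 2027 normalised counts untreated and 3864 with GSK3i (0.93 ± 0.23, adjusted p = 0.000595), and was lower with siβ-catenin under GSK3i in both backgrounds (BRCA2-proficient -0.86 ± 0.14, adjusted p = 2.33e-07, and -0.85, 1.14e-07, without the doubted library, and BRCA2-deficient -0.73 ± 0.20, 0.00724).

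Genes with a like pattern were listed for the 5 members whose group means spanned more than 1 on the log2 scale, by Pearson's r with the member over the 8 group means among 11898 genes. The points are means of 2 or 3 libraries and include the doubted libraries, so r is a description only. For BMF these were KLHL24 (r = 0.997), ZMIZ1 (0.993) and FOSL2 (0.988), and for BBC3 CTDSP2, PBXIP1 and HOXC6 (0.985 each). For BCL2L11 they were ITPRIPL2 (0.948), MIR1915HG (0.944) and TRIB2 (0.942), and for PMAIP1 PMS2P5 (0.981), NAA30 (0.981) and HILPDA (0.973). For BAK1 they included its own pseudogene BAK1P1 (0.993) and ZNF57 (0.991).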

How the data were processed

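RNA-seq libraries from 22 H1299 cultures in 8 groups were analysed from the deposited table of raw read counts per Ensembl gene, 37908 genes. The authors prepared stranded poly(A) libraries, sequenced them as paired ends, and aligned them to GRCh37/hg19. The submitters' processing notes name HISAT2 2.0.4, Picard 1.9.2, SAMtools 1.4 and featureCounts 1.5.0. The study's reporting summary gives other versions of HISAT2, Picard and featureCounts, so the versions used are not settled. Duplicates were removed, which compresses high counts, and uniquely mapping reads were counted, which lowers genes with close copies. Depth was 18938266 to 29280122 counts per library, so the spread between libraries, not counting error, limits most members. Gene names and positions were taken from GENCODE 44 on GRCh37.

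Each comparison was fitted on its own libraries with DESeq2 1.42.0 (Wald test, median-of-ratios size factors, no shrinkage, R 4.3.3), after leaving out genes with fewer than 10 counts in more than 3 of its libraries. Differences between effects were tested as interaction terms, over genes that reached 10 counts in 3 or more libraries. Normalised counts were raw counts divided by size factors over all libraries. Calls needed a Benjamini-Hochberg adjusted p below 0.05 over all genes tested and an absolute log2 fold change over 0.5, as in the study's methods. Scripts were tested on simulated data. Alternatives were edgeR 4.0.16 (quasi-likelihood test), TMM factors, no filter, the replicate number as a block, one model over all groups, and leaving out each library. The response score, the list genes given without the doubted library and the fits without both libraries numbered 2 were chosen after seeing the data.

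The labels number the replicates. The deviations of same-numbered libraries from their group means correlated over 11898 genes by 0.141 to 0.868 in the 6 comparisons with 3 pairs. In the other comparisons the values ran from -0.418 to 0.259. No correlation was computed between differently numbered libraries, so a pairing by number was not tested, and the labels do not state one. According to the study's reporting summary, the cultures of an experiment were divided at random from a parental culture. The labels do not state whether libraries of the same number came from the same experiment. The main fits did not use the numbers. The members and lists were chosen with earlier results of these data known. Members were named whether or not they were called, CTNNB1, BRCA2 and AXIN2 as checks, and from each other list no more than the 3 called genes with the largest changes and a mean of at least 100 normalised counts, not all of which are given. Genes outside this rule are said to be so where they are named. Pattern genes were the 3 with the highest r for each member spanning more than 1 on the log2 scale. One pattern gene and one marker gene are not reported here.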

Additional observations from a re-analysis of the deposited data

Results flagged for a closer look

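BCL2L11 was flagged because the effect of GSK3i differed between cells with siβ-catenin and with control siRNA in the BRCA2-deficient background, by a direct test of that difference (-1.41 ± 0.25 on the log2 scale, DESeq2 adjusted p = 1.71e-05). All 3 libraries with GSK3i and control siRNA lay above the untreated ones, at 438 to 643 normalised counts, and all 3 with GSK3i and siβ-catenin lay below those with siβ-catenin alone, at 173 to 195 against 220.2 to 248. The difference kept its direction in all 17 alternatives and was called in 16 of them, edgeR being the exception (adjusted p = 0.0525).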

How the results depend on the processing

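Of the 1720 values of single members under the alternatives, 1674 kept their side of the threshold, 22 lost a call, 24 gained one and 0 reversed a call. Among the 1674 are 130 values called in neither fit whose sign changed. With edgeR the number of members called was 1 in place of 2 in BRCA2-proficient cells for siβ-catenin under GSK3i, and 0 for siβ-catenin without GSK3i in BRCA2-proficient cells, for BRCA2 depletion without drug and under GSK3i, and for the difference between the effects of GSK3i by siRNA in BRCA2-deficient cells. With one model over all groups it was 0 for siβ-catenin without GSK3i in BRCA2-proficient cells, 1 for the same in BRCA2-deficient cells, and 2 for the difference between the effects of GSK3i by siRNA in BRCA2-proficient cells. With the replicate number as a block it was 1 for siβ-catenin without GSK3i in BRCA2-deficient cells and 1 for that difference in BRCA2-proficient cells, and the block changed no other member's call. Without both libraries numbered 2, chosen after seeing the data, it was 1 for GSK3i after siβ-catenin in BRCA2-proficient cells (BAK1) and 1 for the difference by siRNA there (BBC3). For siβ-catenin under GSK3i in the proficient background, 3 members in place of 2 were called with one model and without GSK3i + siβ-catenin replicate 3 (BBC3 the addition). Leaving out a library in turn gave 3 to 5 members for GSK3i in BRCA2-proficient cells (5 without GSK3i replicate 3), 1 to 3 for siβ-catenin without GSK3i in the proficient background (3 without siβ-catenin replicate 3) and 0 to 1 in the deficient one, 0 to 3 for BRCA2 depletion without drug, 0 to 1 for it under GSK3i, and 0 to 2 for the difference by siRNA in BRCA2-proficient cells. For BRCA2 depletion without drug, the 3 members were called without untreated BRCA2-deficient replicate 3. The cause of these changes was not tested. A fit that leaves 1 library in a group assumes that it varies like the others.

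Over all genes, edgeR called 183 in place of 836 and 267 in place of 939 for siβ-catenin under GSK3i (BRCA2-proficient, then BRCA2-deficient), 1 in place of 524 and 0 in place of 351 for siβ-catenin without GSK3i, 0 in place of 9 for GSK3i after siβ-catenin in the proficient background, and 326 in place of 1185 and 645 in place of 1112 for BRCA2 depletion without drug and under GSK3i. For the differences between effects it called 0 in place of 6 and 0 in place of 1 by background, and 4 in place of 1305 and 11 in place of 88 by siRNA. The replicate block gave 189 and 527 genes for siβ-catenin without GSK3i, 3 in place of 9 for GSK3i after siβ-catenin in the proficient background, 94 and 4 for the differences by background, and 335 in place of 88 for the difference by siRNA in the deficient one. One model over all groups gave 272 in place of 524, 1 in place of 9, 1 in place of 6, 0 in place of 1 (as did no filter), 2128 in place of 1305 and 52 in place of 88 for the comparisons with those counts. Without both libraries numbered 2, GSK3i after siβ-catenin in the proficient background called 1101 genes in place of 9, and the difference by siRNA there 593 in place of 1305. Without a single library, siβ-catenin without GSK3i called 39 and 21 genes in place of 524 in the proficient background when untreated replicate 2 or 3 was left out and 2039 without siβ-catenin replicate 3, and 83 in place of 351 in the deficient one without untreated replicate 2. BRCA2 depletion without drug called 181, 227 and 2161 in place of 1185 without proficient untreated replicate 2 or 3 or deficient untreated replicate 3. siβ-catenin under GSK3i called 291 in place of 836 and 372 in place of 939 without GSK3i replicate 2, and the difference by siRNA in the proficient background 98 without untreated replicate 3 and 2259 without siβ-catenin replicate 3, in place of 1305. Those named are the most extreme counts, and other single libraries also moved these and the remaining counts by over 1.5 times: 530 at most for siβ-catenin without GSK3i in the deficient background, 2836 in place of 4372 for GSK3i in the proficient one, 2229 in place of 3534 for GSK3i after siβ-catenin in the deficient one, 3 to 28 in place of 9 for it in the proficient one, 613 in place of 1112 for BRCA2 depletion under GSK3i, 2 to 15 in place of 6 and 0 to 11 in place of 1 for the differences by background, and 47 in place of 88 for that by siRNA in the deficient one.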
